A study of Mus musculus with 20 samples.

Results

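The change in gene expression from the early to the late 8-cell stage was examined in control mouse embryos, using 4 of the 20 RNA sequencing libraries of the series. The members were chosen by label alone: the 2 libraries of control early 8-cell embryos and the 2 of control late 8-cell embryos. All 4 are of WT genotype and carry no named agent in their labels beyond the word control, which does not say whether these embryos were injected. The zygotes were cultured in KSOM, a culture medium for mouse embryos, and the libraries were made from lysed whole embryos by Smart-seq2, a full-length cDNA method for very small samples. The number of embryos in a library, the strain and the hours between the stages are not given in the sources used here. The rest of the series follows control embryos from the late 2-cell stage and embryos that received siRNA against P300, an acetyltransferase encoded by Ep300, with or without I1394G or NaCr.

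Compaction takes place between these stages. The blastomeres, which are round and loosely attached at first, flatten against each other through E-cadherin contacts, and each cell builds an apical domain facing outwards and a basolateral domain facing its neighbours. Outer cells that keep the apical domain hold Hippo signalling low and turn on trophectoderm genes, and enclosed cells give rise to the inner cell mass. In the same period the embryo moves from pyruvate towards glucose as a fuel, and the last oocyte transcripts are being cleared.

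The early libraries held 11738953 and 12911341 counts and the late ones 22715816 and 21227645. Levels are given as counts-per-million (CPM) after scaling of library sizes, in the order of replicates 1 and 2, and a log2 fold change is late over early with its standard error. Across genes, log2 CPM correlated at 0.976 between the early libraries and 0.994 between the late ones, and at 0.926 to 0.947 between stages. Of 16603 genes tested with edgeR's quasi-likelihood test, 26.2% (4346) passed an adjusted p of 0.05: 15% (2494) were higher in late embryos and 11.2% (1852) were lower. Both late libraries lay above or below both early ones for 4329 of these. The spread behind the p-values was estimated over all 20 libraries in 10 groups, not from these 2 groups alone. With 2 libraries a group whose separate origin is not stated, that spread is between samples and may be technical. The RNA of whole embryos also cannot tell fewer expressing cells from less RNA per cell. At 11738953 counts per library, 14923 ± 482 genes had a count in early embryos and 16230 ± 51.6 in late ones (mean ± SD, n = 2), and with at least 5 counts the numbers were 12886 ± 346 and 13260 ± 36.8. The call count was 3642 without early replicate 1, 2352 without early replicate 2, 2700 without late replicate 1 and 2010 without late replicate 2. Of the members of the gene lists below, 406 were called, and 343, 254, 281 and 230 with these libraries left out in the same order. The ranges in parentheses after a list's counts are its lowest and highest number of rises and of falls over the alternative settings, each library left out included. Thinning to equal depth and a minimum log2 fold change of 1 are not among the settings of these ranges. A list's counts are to be read beside the shares over all tested genes, 15% higher and 11.2% lower. These shares depend on the filter. Among 9982 genes with at least 50 counts in a group's libraries, 2006 were higher and 2151 lower. Both shares are thus larger among well-counted genes, that of falls most, and a list of such genes can exceed 11.2% lower for this reason alone.

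**Figure D1:**
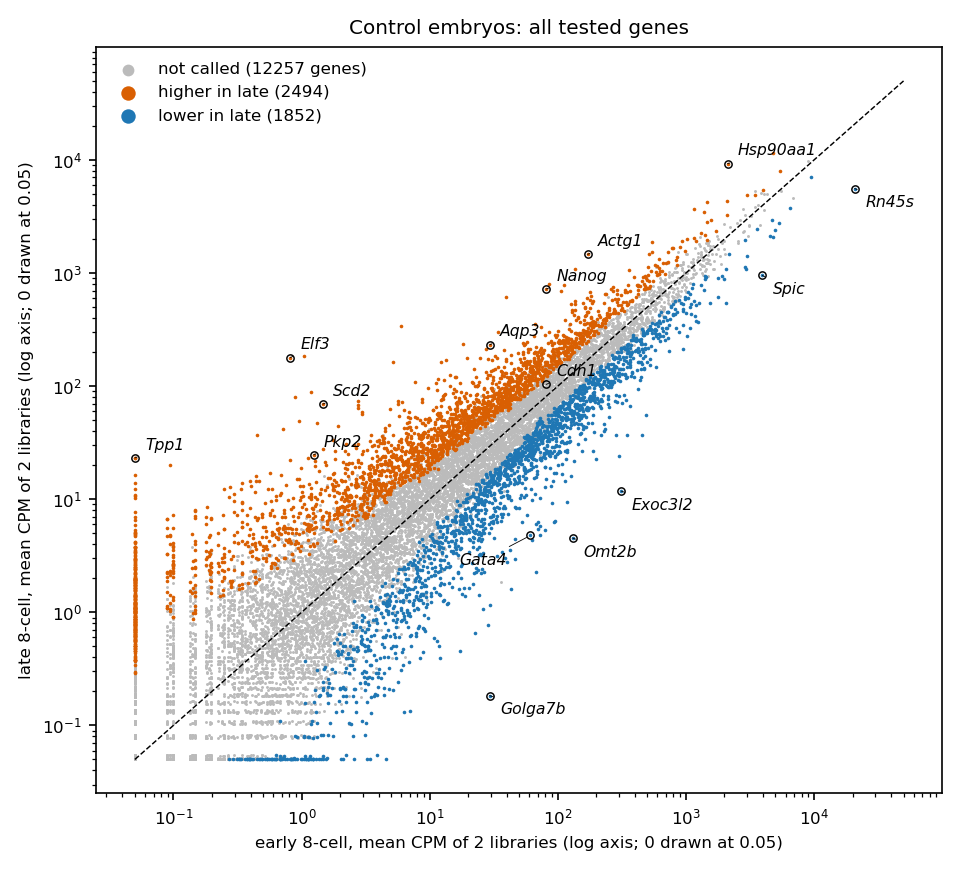
Each point is 1 of 16603 tested genes, with its mean CPM in early (horizontal) and late (vertical) control 8-cell embryos on log axes, where 0 is drawn at 0.05. Orange points are the 2494 genes called higher and blue points the 1852 called lower in late embryos; Elf3 and Nanog lie far above the dashed line of equality, Omt2b and Gata4 far below it, and Cdh1 on it.

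Of 34 trophectoderm genes tested, 12 rose and 3 fell (8 to 13 and 1 to 5 across settings), with a median log2 fold change of 0.44 beside 0.11 for all genes. The ETS-family factor Elf3, which acts in epithelial cells, had the largest called rise of the list. It stood at 1.28 and 0.359 CPM in the early libraries and 160.1 and 198 CPM in the late ones, a log2 fold change of 7.78 ± 0.52, adjusted p = 2.1e-07. The late values exceed the early ones by more than 2 orders of magnitude, with no overlap. The caudal homeobox gene Cdx2, which specifies trophectoderm, was at 1.97 and 1.61 CPM early and 15.7 and 13.9 CPM late (3.04 ± 0.997, adjusted p = 0.032). Both late libraries were clearly above both early ones, but the call needed all 4 libraries: its adjusted p was 0.0988 to 0.147 with any 1 of the 4 libraries left out. For Gata3, another trophectoderm factor, singled out after its values were seen, the levels were 24.3 and 25.9 CPM early and 81.3 and 83.1 CPM late, and the change did not pass the test (log2 fold change 1.71 ± 0.66, adjusted p = 0.064).

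The upstream sequences of Elf3 and Cdx2 are shown because both factor genes were called higher and share a motif. Each line gives the 250 bases before the annotated start, 5′ to 3′ on the gene's strand (RefSeq, GRCm38.p6; Elf3 at chr1:135258473-135258722, Cdx2 at chr5:147307250-147307499, both on the minus strand). Capitals mark the octamer ATGCAAAT, the site read by POU factors such as the product of Pou5f1.
Elf3: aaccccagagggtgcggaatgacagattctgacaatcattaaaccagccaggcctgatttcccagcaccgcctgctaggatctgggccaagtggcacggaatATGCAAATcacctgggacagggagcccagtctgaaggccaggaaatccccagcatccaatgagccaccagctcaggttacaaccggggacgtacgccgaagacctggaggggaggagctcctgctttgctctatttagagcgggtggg
Cdx2: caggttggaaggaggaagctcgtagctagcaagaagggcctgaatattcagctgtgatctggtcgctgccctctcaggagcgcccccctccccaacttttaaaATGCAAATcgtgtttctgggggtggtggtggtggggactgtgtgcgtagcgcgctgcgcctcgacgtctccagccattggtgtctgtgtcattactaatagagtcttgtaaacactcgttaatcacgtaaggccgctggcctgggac
The octamer begins 148 bases before the start in Elf3 and 147 bases before it in Cdx2. Searched on both strands, it occurred in 1.6% of all 32851 upstream windows of this length and in 1.36% of those of tested genes. The share was 1.29% for the genes called higher and 0.997% for the genes called lower. These matches are a description of the letters, found after the values were seen, and binding was not measured.

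Genes of the outer epithelium followed the same direction. The endocytic receptor gene Lrp2 was at 6.497 and 3.86 CPM early and 147 and 177 CPM late (4.97 ± 0.52, adjusted p = 9e-06). The peptidase gene Enpep stood at 5.32 and 5.92 CPM and then 62.1 and 85.6 CPM (3.71 ± 0.63, adjusted p = 0.0004). Each late library was at least several times any early one for both genes. In the opposite direction, Hand1, a basic helix-loop-helix factor of later trophoblast giant cells, was at 165 and 162 CPM early and 47.7 and 39.1 CPM late (-1.91 ± 0.32, adjusted p = 0.00038). Tead4, the DNA-binding partner of YAP in trophectoderm specification, went from 155 and 216 to 122 and 96.7 CPM (-0.76 ± 0.27, adjusted p = 0.044); its adjusted p was 0.312 without early replicate 2, 0.0788 without late replicate 1 and 0.294 without late replicate 2. The list thus held both the rise of Elf3 and falls with separated libraries.

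Pluripotency genes split between the directions: of 35 tested, 8 rose and 6 fell (5 to 9 and 2 to 10 across settings), with a median log2 fold change of 0.00. The median ran from -0.30 to 0.02 across settings. Of the tested members 2 had no count in the 4 libraries and a fitted change of 0, so the 0.00 is not a measured balance. Nanog, a homeobox factor of the inner cell mass, was at 88.7 and 73.8 CPM in early and 747 and 699 CPM in late libraries (3.15 ± 0.52, adjusted p = 0.00032). Tfcp2l1, a factor of the naive pluripotency network, was at 31.99 and 36.1 and 316 and 292 CPM (3.16 ± 0.42, adjusted p = 5.8e-05). Pou5f1, which encodes OCT4, was at 77.6 and 53.6 and 265 and 287 CPM (2.07 ± 0.44, adjusted p = 0.0021). These 3 factors had late values well above the early range in both libraries. L1td1, an RNA-binding protein gene of pluripotent cells, also rose, from 5.02 and 6.55 to 30.8 and 34.7 CPM (2.50 ± 0.40, adjusted p = 0.00026).

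Other genes of the same network went down. The ETS-family gene Spic was at 2928 and 4975 CPM early and 1137 and 767 CPM late (-2.05 ± 0.43, adjusted p = 0.0019). The nuclear receptor gene Esrrb stood at 40.3 and 72.7 and then 17.1 and 13.4 CPM (-1.89 ± 0.42, adjusted p = 0.0032), and the Kruppel-like factor gene Klf4 at 55.7 and 99.1 and then 31.6 and 25.04 CPM (-1.45 ± 0.30, adjusted p = 0.0019). For all 3 genes every late library lay below every early one, though early replicate 2 was the higher early library in each. Esrrb missed the threshold in some subsets, with an adjusted p of 0.0562 without early replicate 2 and 0.0567 without late replicate 2, as did Klf4, with 0.0516 without early replicate 2. Sall4, a zinc-finger factor, was at 657 and 806 early and 465 and 439 CPM late (-0.69 ± 0.19, adjusted p = 0.013), and its adjusted p was 0.131 without early replicate 2, 0.0588 without late replicate 1 and 0.111 without late replicate 2. Sox2, which marks inner cells once they form and was also singled out after its values were seen, was at or near 0 in all 4 libraries, with 0.591 and 0.269 CPM early and 0 and 0.441 CPM late.

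**Figure D2:**
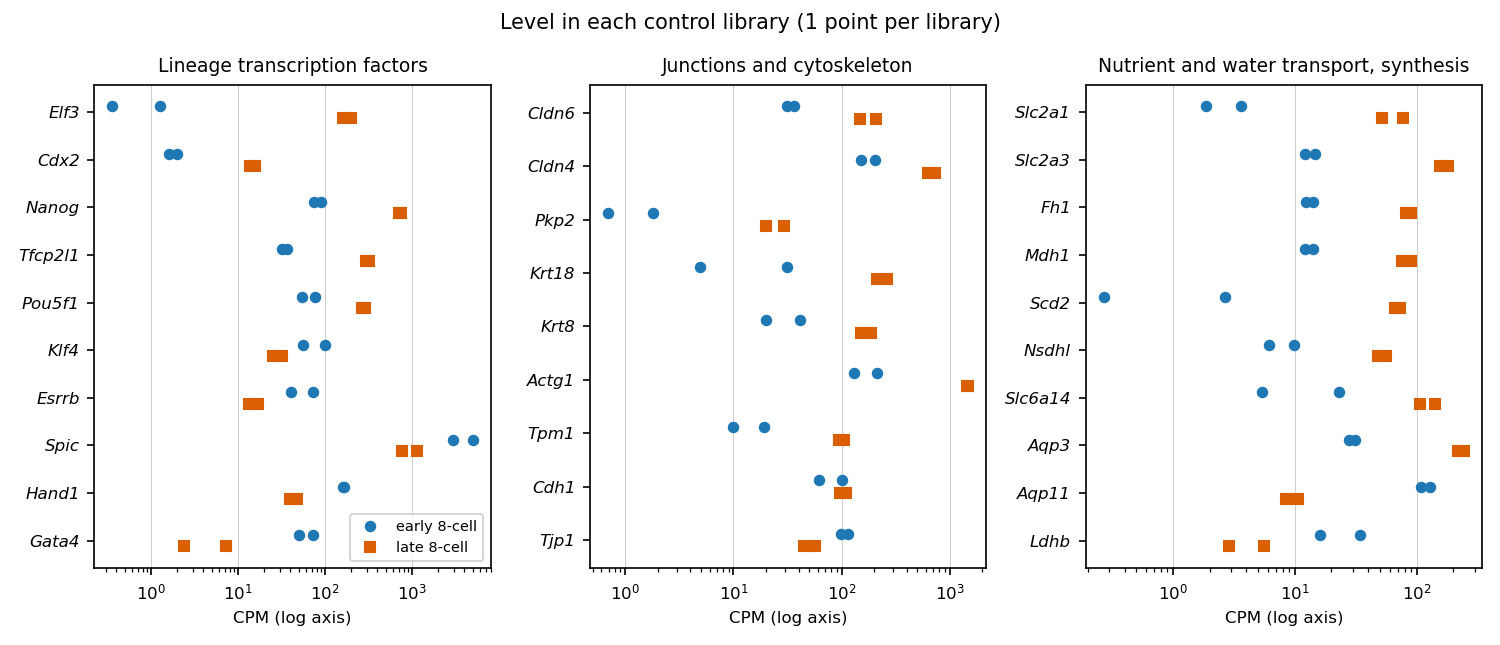
CPM (log axis) of 29 genes in each of the 4 control libraries, with early libraries as blue circles and late libraries as orange squares. The stages are separated for every gene shown except Cdh1, and Elf3, Scd2 and Pkp2 have the lowest early values.

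Primitive endoderm genes gave 4 rises and 2 falls among 22 tested (3 to 6 and 2 to 3 across settings). Lrp2, given above with the trophectoderm genes, is 1 of these rises, since a gene can belong to more than 1 list. These shares, 18.2% and 9.09%, were near the 15% and 11.2% of all genes. The median log2 fold change was 0.71, or 0.16 when genes with no count in a group are set at their bound, and -0.09 with limma on log2 FPKM, so its sign depends on the setting. The endocytic adaptor gene Dab2, which works with Lrp2, was at 73.8 and 58.1 early and 336 and 368 CPM late (2.42 ± 0.55, adjusted p = 0.0038); its adjusted p was 0.0502 without early replicate 2. Basement membrane genes were among the rises, with Sparc at 0.197 and 0.987 and then 7.598 and 8.604 CPM (3.72 ± 0.70, adjusted p = 0.00091) and the laminin chain gene Lamc1 at 5.41 and 6.01 and then 18.9 and 20.1 CPM (1.77 ± 0.38, adjusted p = 0.0022). The endoderm factor gene Gata4 was at 49.9 and 72.3 CPM early and 7.19 and 2.37 CPM late (-3.67 ± 0.52, adjusted p = 1.0e-04). Cited1, a transcriptional co-activator gene, stood at 1029 and 863 and then 205 and 222 CPM (-2.15 ± 0.32, adjusted p = 0.00014). The 2 genes that fell had no overlap between stages.

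The E-cadherin gene Cdh1 itself did not pass the test, at 62.2 and 100.1 CPM early and 110.5 and 96.7 CPM late (log2 fold change 0.35 ± 0.29, adjusted p = 0.4), and the early and late ranges overlapped. Of 17 genes of the adherens junction, 1 rose and 1 fell (0 to 2 and 0 to 3 across settings), a share below that of all genes. Epcam, an epithelial adhesion molecule gene, was at 132 and 86.5 and then 232 and 334 CPM (1.37 ± 0.30, adjusted p = 0.0028), with an adjusted p of 0.0559 without early replicate 2. Vcl, which encodes the actin linker vinculin, was at 26.8 and 72.5 and then 16.6 and 15.2 CPM (-1.64 ± 0.35, adjusted p = 0.0026), with an adjusted p of 0.127 without early replicate 2.

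Tight and gap junction genes moved in part. Among 20 tight junction genes, 4 claudins rose and 1 scaffold gene fell (1 to 4 and 0 to 3 across settings). Claudins seal the space between outer cells before the blastocoel forms. Cldn6 was at 36.3 and 31.1 CPM early and 147 and 207 CPM late (2.39 ± 0.24, adjusted p = 5e-06). Cldn4 was at 153 and 203 and 626 and 726 CPM (1.93 ± 0.52, adjusted p = 0.012), and its adjusted p was 0.0837 without early replicate 1, 0.0508 without early replicate 2 and 0.062 without late replicate 2. Both claudins were several times higher in each late library. Tjp1, which encodes the scaffold ZO-1, was at 97.7 and 114 and then 56.9 and 44.7 CPM (-1.06 ± 0.36, adjusted p = 0.039), and its adjusted p was 0.0631 to 0.249 with any 1 of the 4 libraries left out. Of 8 connexin genes 3 rose and 0 fell (1 to 3 and 0 to 1 across settings). Gja1, which encodes connexin 43, was at 832 and 747 and then 1601 and 1723 CPM (1.07 ± 0.27, adjusted p = 0.0067), and its adjusted p was 0.0662 without early replicate 2.

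Desmosome and keratin genes rose most often among the contact structures, with 7 of 15 tested called higher and 0 lower (4 to 8 and 0 across settings) and a median log2 fold change of 1.87. Keratins 8 and 18 pair to form the first intermediate filaments of the embryo. Krt18 was at 31.2 and 4.93 CPM early and 215 and 260.4 CPM late (3.72 ± 0.65, adjusted p = 0.0005), and Krt8 at 41.4 and 20.2 and 150.1 and 187 CPM (2.45 ± 0.49, adjusted p = 0.0014). Early replicate 2 was the lower early library for both keratins, and both late libraries were well above either. The plakophilin gene Pkp2, which links desmosomes to keratin, stood at 0.689 and 1.79 and then 19.9 and 29.5 CPM (4.29 ± 0.64, adjusted p = 0.00015). The desmoglein gene Dsg2 had no count in either early library and 6.88 and 8.66 CPM in the late ones, at least 54.95-fold higher when 3 counts are allowed over the early group (adjusted p = 0.0021).

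The cortical actin and myosin genes included 15 rises and 5 falls among 46 tested (6 to 17 and 0 to 7 across settings), with a median log2 fold change of 0.36. Actg1, one of the cytoplasmic actins, led them at 213 and 129 CPM early and 1489 and 1439 CPM late (3.10 ± 0.36, adjusted p = 1.7e-05). Its late libraries were close to each other and both many times the early ones. The tropomyosin gene Tpm1 was at 19 and 9.96 and 95.1 and 105 CPM (2.79 ± 0.33, adjusted p = 1.8e-05), the actin-capping gene Capzb at 38.3 and 40.5 and 146 and 188 CPM (2.09 ± 0.28, adjusted p = 6.5e-05), and the crosslinker gene Actn4 at 58.2 and 76.8 and 176 and 148 CPM (1.26 ± 0.21, adjusted p = 0.00029). Among the falls, Rock1, a kinase that activates myosin, was at 107 and 163 and then 72.5 and 61.2 CPM (-1.02 ± 0.30, adjusted p = 0.018; adjusted p 0.202 without early replicate 2, 0.0555 without late replicate 1 and 0.148 without late replicate 2). The formin gene Fmnl3 stood at 5.51 and 7.18 and then 2.52 and 2.54 CPM (-1.33 ± 0.32, adjusted p = 0.0054; adjusted p 0.06 without early replicate 2).

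The upstream sequence of Actg1 is shown because this gene had the lowest adjusted p of the actin list and carries a CArG box, the site read by serum response factor, in the 250 bases before its start (chr11:120348496-120348745, minus strand, RefSeq, GRCm38.p6). Capitals mark the box, which begins 90 bases before the start.
Actg1: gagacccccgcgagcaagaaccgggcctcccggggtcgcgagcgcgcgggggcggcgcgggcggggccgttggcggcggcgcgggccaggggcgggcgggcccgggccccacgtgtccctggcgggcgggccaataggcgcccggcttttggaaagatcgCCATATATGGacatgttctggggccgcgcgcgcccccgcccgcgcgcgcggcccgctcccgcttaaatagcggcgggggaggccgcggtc
A CArG box was present in 1.47% of all upstream windows and in 4 of the 51 windows of the list (7.84%), those of Actg1, Myl6, Myl9 and Vil1. Of these genes Actg1 rose and Vil1, which encodes villin, fell (1.08 and 4.84 and then 0.821 and 0.221 CPM, -2.48 ± 0.70, adjusted p = 0.014; adjusted p 0.456 without early replicate 2 and 0.153 without late replicate 2). The changes of Myl6 and Myl9 did not pass the test (adjusted p = 0.49 and 0.096). The share was 0.849% among genes called higher, 1.57% among those called lower and 1.2% among all tested genes. The box was thus no more frequent in the genes called higher than in the tested genes or in all windows. Besides the octamer and this box, the TEAD site GGAATG was searched on both strands. The Elf3 window shown above also holds GGAATG, near its 5′ end, where it is not marked. The TEAD site was in 12.6% of all windows, 11.1% of those of tested genes and 23.5% of those of the actin list. It was in 10.8% of those of the genes called higher and 9.92% of those of the genes called lower.

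Apical polarity genes gave 5 rises and 3 falls among 24 tested (2 to 7 and 0 to 3 across settings), and basolateral ones 0 rises and 5 falls among 13 (0 and 1 to 6 across settings). The apical shares, 20.8% and 12.5%, were near the 15% and 11.2% of all genes, while 38.5% of the basolateral genes fell. The apical rises were 2 without early replicate 1 and 2 without late replicate 2. On the apical side the small GTPase genes Cdc42 and Rac1 rose: Cdc42 was at 692 and 503 and then 1089 and 1198 CPM (0.94 ± 0.19, adjusted p = 0.0016), and Rac1 at 31.7 and 62.4 and then 143 and 108 CPM (1.41 ± 0.33, adjusted p = 0.0043; adjusted p 0.064 without early replicate 1). Ezr, which encodes the apical linker ezrin, was at 0.689 and 4.22 and then 10.7 and 10.4 CPM (2.09 ± 0.61, adjusted p = 0.017), and its adjusted p was 0.123 without early replicate 1, 0.0606 without late replicate 1 and 0.067 without late replicate 2. The polarity scaffold gene Dlg5 had the largest basolateral fall, from 7.68 and 16.2 to 2.57 and 2.096 CPM (-2.35 ± 0.41, adjusted p = 0.00052). Stk11, which encodes the polarity kinase LKB1, was at 24.6 and 32.6 and then 12.7 and 10.8 CPM (-1.28 ± 0.27, adjusted p = 0.0019).

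**Figure D3:**
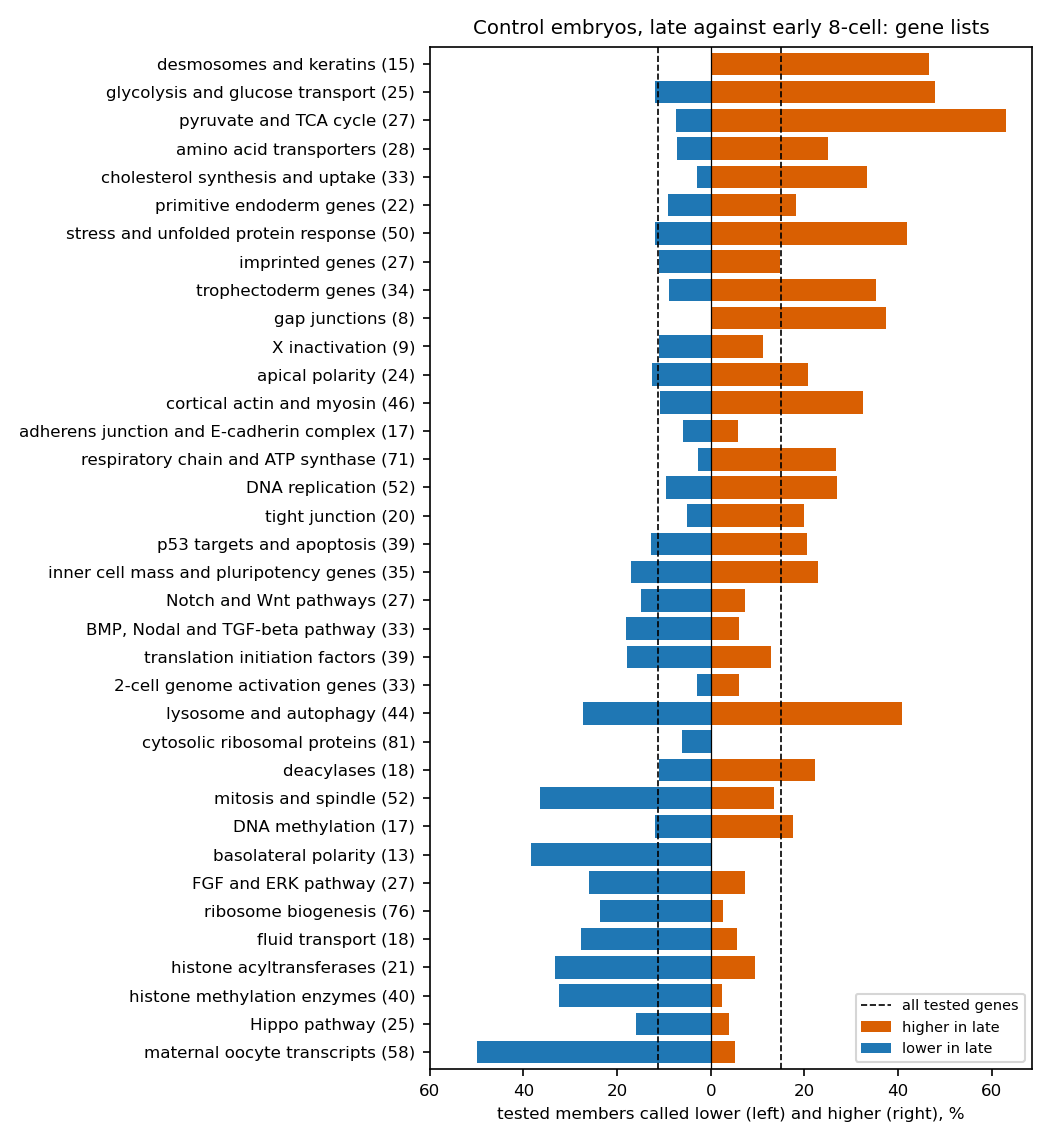
For each of 36 gene lists (number of tested members in parentheses), the bar to the right gives the percentage of tested members called higher in late embryos and the bar to the left the percentage called lower, ordered by median log2 fold change. Dashed lines mark the shares over all tested genes, 15% higher and 11.2% lower; the pyruvate and TCA cycle list extends furthest to the right and the maternal oocyte list furthest to the left.

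Hippo pathway genes gave 1 rise and 4 falls among 25 tested (0 to 1 and 2 to 7 across settings). YAP, the co-activator that Hippo kinases hold out of the nucleus, is encoded by Yap1, which was at 54.3 and 101 CPM early and 26.6 and 23.1 CPM late (-1.64 ± 0.27, adjusted p = 0.0003). Its target gene Ccn1 stood at 66.2 and 58.6 and then 24.5 and 22.2 CPM (-1.42 ± 0.29, adjusted p = 0.0015). The rise was that of the kinase gene Stk3, at 12.3 and 10.6 and then 23.6 and 24.9 CPM (1.08 ± 0.29, adjusted p = 0.011; adjusted p 0.0957 without early replicate 2 and 0.071 without late replicate 2).

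In the FGF and ERK pathway 2 of 27 genes rose and 7 fell (1 to 3 and 5 to 9 across settings). The falls included feedback inhibitors of the pathway. The ERK phosphatase gene Dusp6 stood at 84.95 and 60.3 and then 4.31 and 5.295 CPM (-3.92 ± 0.81, adjusted p = 0.0019). The sprouty gene Spry2 was at 257 and 429.5 and 70.8 and 80.1 CPM (-2.19 ± 0.31, adjusted p = 0.0001), and its relative Spred1 at 27.5 and 44.4 and 7.29 and 5.46 CPM (-2.49 ± 0.40, adjusted p = 0.00027). Sos1, an activator of RAS, also fell, from 151 and 229.8 to 85.9 and 64.6 CPM (-1.34 ± 0.27, adjusted p = 0.0017).

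The Notch and Wnt list held 2 rises and 4 falls among 27 (1 to 3 and 0 to 5 across settings), and the BMP, Nodal and TGF-beta list 2 rises and 6 falls among 33 (1 to 3 and 2 to 7 across settings), both with a median of 0.00. Across settings the medians ran from -0.14 to 0.21 and from -0.32 to 0. The lists held 1 and 2 genes with no count in the 4 libraries and a fitted change of 0, so the 0.00 is not a measured balance. The ligand gene Wnt7b had no early count and 5.596 and 8.27 CPM late, at least 48.9-fold higher (adjusted p = 0.0011). The Wnt receptor gene Fzd7 was at 1.28 and 2.87 and then 0.103 and 0.165 CPM (-3.88 ± 0.65, adjusted p = 0.00034). The TGF-beta family ligand gene Gdf3 rose from 12.5 and 10.05 to 97.2 and 117 CPM (3.25 ± 0.74, adjusted p = 0.0037), and the ligand gene Bmp4 stood at 24.1 and 20.99 early and 0.821 and 0.496 CPM late (-5.07 ± 1.41, adjusted p = 0.013). The Bmp4 call was lost in some subsets, with an adjusted p of 0.0749 without late replicate 1 and 0.121 without late replicate 2. The oocyte ligand gene Gdf9 was at 11.03 and 6.82 and then 1.39 and 1.05 CPM (-2.86 ± 0.45, adjusted p = 0.00023).

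Among 18 fluid transport genes 1 rose and 5 fell (1 to 2 and 2 to 5 across settings). Water enters the later blastocoel through aquaporins, and ion pumps set the gradient. Aqp3 was at 31.1 and 27.6 CPM early and 245 and 219 CPM late (2.98 ± 0.33, adjusted p = 1.3e-05). Aqp11, an aquaporin of internal membranes, showed the reverse, at 128 and 109 CPM early and 10.6 and 8.49 CPM late (-3.64 ± 0.32, adjusted p = 2.1e-06). Each pair of libraries agreed closely for both genes and the stages were far apart. The chloride cotransporter gene Slc12a2 was at 509 and 872 and then 318 and 197 CPM (-1.42 ± 0.29, adjusted p = 0.0017). The beta subunit gene of the sodium pump Atp1b2 stood at 10.04 and 5.203 and then 1.59 and 1.76 CPM (-2.18 ± 0.56, adjusted p = 0.0085; adjusted p 0.0736 without early replicate 1, 0.067 without late replicate 1 and 0.064 without late replicate 2).

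Genes of fuel use rose in large part. Of 25 genes of glycolysis and glucose transport 12 rose and 3 fell (9 to 13 and 3 to 4 across settings), with a median log2 fold change of 0.98. Both glucose transporter genes of the outer membrane were among the rises: Slc2a1 was at 3.64 and 1.88 CPM early and 52.4 and 76.7 CPM late (4.55 ± 0.56, adjusted p = 2.9e-05), and Slc2a3 at 14.7 and 12.02 and 181 and 157 CPM (3.66 ± 0.31, adjusted p = 1.4e-06). The aldolase gene Aldoa was at 176 and 185 and 608 and 648 CPM (1.80 ± 0.20, adjusted p = 1.3e-05), and the pyruvate kinase gene Pkm at 18.9 and 13.5 and 49.5 and 70.05 CPM (1.88 ± 0.25, adjusted p = 4.9e-05). The falls were 3: the lactate dehydrogenase B gene Ldhb, from 34.1 and 16.1 to 2.88 and 5.63 CPM (-2.56 ± 0.38, adjusted p = 0.00015), the regulatory enzyme gene Pfkfb3 (-2.33 ± 0.37) and the hexokinase gene Hk1 (-1.95 ± 0.42).

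Of 27 genes of pyruvate use and the TCA cycle, 17 rose and 2 fell (12 to 19 and 1 to 2 across settings), the highest share of rises among the lists. Fumarase, encoded by Fh1, was at 12.4 and 14.1 CPM early and 81.1 and 90.2 CPM late (2.69 ± 0.30, adjusted p = 1.3e-05). The malate dehydrogenase gene Mdh1, counted in this list though its enzyme is the cytosolic form, stood at 13.98 and 12.1 and then 75.9 and 90.7 CPM (2.67 ± 0.34, adjusted p = 3.7e-05). The succinyl-CoA ligase gene Sucla2 was at 154 and 107 and then 434 and 506 CPM (1.85 ± 0.23, adjusted p = 2.6e-05). The 2 falls were the subunit genes of the mitochondrial pyruvate carrier, Mpc2 at 459 and 501 and then 191 and 176 CPM (-1.39 ± 0.21, adjusted p = 0.00019) and Mpc1 at 208 and 253 and then 134 and 136 CPM (-0.77 ± 0.23, adjusted p = 0.018); the Mpc1 adjusted p was 0.139 without early replicate 2, 0.0952 without late replicate 1 and 0.105 without late replicate 2. In the respiratory chain and ATP synthase 19 of 71 genes rose and 2 fell (9 to 23 and 0 to 9 across settings), led by the complex I genes Ndufa10 (1.58 ± 0.23) and Ndufs4 (1.69 ± 0.26).

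Cholesterol synthesis and uptake held 11 rises and 1 fall among 33 genes (3 to 15 and 0 to 1 across settings). The sterol dehydrogenase gene Nsdhl was at 9.94 and 6.1 CPM early and 48.1 and 55.98 CPM late (2.70 ± 0.37, adjusted p = 8.2e-05), and the mevalonate decarboxylase gene Mvd at 5.91 and 2.24 and 29.98 and 32.4 CPM (2.94 ± 0.53, adjusted p = 0.00068). Scd2, a fatty acid desaturase gene, stood at 2.66 and 0.269 early and 66.3 and 72.4 CPM late (5.59 ± 0.79, adjusted p = 9.3e-05). The early-step gene Hmgcs1 was at 104 and 115 and 124 and 103 CPM (log2 fold change 0.06) and did not pass the test, and it was singled out after its values were seen. The early replicates differed within this list, with replicate 2 below replicate 1 for Nsdhl, Mvd and Scd2.

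Amino acid transporter genes gave 7 rises and 2 falls among 28 (3 to 8 and 1 to 3 across settings). Slc6a14, a broad transporter gene, was at 23.2 and 5.38 CPM early and 107 and 143 CPM late (3.13 ± 0.54, adjusted p = 0.00042), and the shared heavy chain gene Slc3a2 at 146 and 129 and 282 and 312 CPM (1.11 ± 0.20, adjusted p = 0.0006). The glycine transporter gene Slc6a9, whose product serves cell volume control in the cleaving embryo, stood at 4.63 and 3.86 and then 0.616 and 0.441 CPM (-2.98 ± 0.50, adjusted p = 0.00038).

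Transcripts loaded in the oocyte fell more often than any other list, with 29 of 58 tested lower (17 to 32 across settings), 3 higher (2 to 3) and a median log2 fold change of -1.66. The early libraries were uneven for several of them. Omt2b was at 213 and 48.7 CPM early and 4.11 and 4.96 CPM late (-4.85 ± 0.54, adjusted p = 1.3e-05), Omt2a at 63.98 and 28.6 and 2.82 and 3.09 CPM (-3.96 ± 0.36, adjusted p = 2.6e-06), and Oog3 at 98.4 and 42.3 and 4.16 and 8.55 CPM (-3.47 ± 0.43, adjusted p = 2.9e-05). Early replicate 1 held the higher level of each, and both early libraries were above the late ones. Oosp1, an oocyte-secreted protein gene, had a wide gap between the early libraries, at 31.9 and 2.69 CPM against 0.462 and 0.441 CPM late (-5.22 ± 1.06, adjusted p = 0.0017), and without early replicate 1 its adjusted p was 0.0995 and its log2 fold change -2.57. Against this direction, 2 genes of the subcortical maternal complex rose: Khdc3 was at 148 and 75.99 and then 756 and 814 CPM (2.81 ± 0.39, adjusted p = 8.1e-05) and Ooep at 3.74 and 1.88 and then 19.3 and 19.03 CPM (2.77 ± 0.46, adjusted p = 0.00032). The complex did not move as a whole, since its member gene Nlrp5 fell (-2.78 ± 0.37, adjusted p = 6.4e-05).

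Of 33 genes of the 2-cell genome activation wave, 2 rose and 1 fell (1 to 7 and 1 to 5 across settings). Calcoco2, which encodes an autophagy receptor, was at 1359 and 942 CPM early and 3732 and 3669.7 CPM late (1.69 ± 0.36, adjusted p = 0.0022), and the antiproliferative gene Btg1 at 237 and 399.8 and 68.3 and 72.97 CPM (-2.17 ± 0.33, adjusted p = 0.00015).

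Ribosome biogenesis held 2 rises and 18 falls among 76 genes (0 to 2 and 6 to 31 across settings), with a median log2 fold change of -0.30. Rrn3, the initiation factor of RNA polymerase I, was at 889 and 1008 CPM early and 384 and 317 CPM late (-1.44 ± 0.17, adjusted p = 1.6e-05), and the processing factor gene Wdr43 at 1639.8 and 1893 and 987 and 833 CPM (-0.96 ± 0.17, adjusted p = 0.00052). The entry Rn45s, the 45S precursor of ribosomal RNA, stood at 23058 and 18471 CPM early and 6011 and 5169.7 CPM late (-1.89 ± 0.31, adjusted p = 0.00031), the largest fall in CPM of any gene. How much ribosomal RNA reached each library was not measured apart from this entry. Among 81 cytosolic ribosomal protein genes 0 rose and 5 fell (0 to 3 and 0 to 29 across settings) with a median of -0.12, and the 6.17% that fell lie below the 11.2% of all genes. Translation initiation factors gave 5 rises and 7 falls among 39 (3 to 5 and 2 to 15 across settings), with Eif3d up (1.04 ± 0.17, adjusted p = 0.00028) and Eif1 down (-1.09 ± 0.18, adjusted p = 0.00029).

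DNA replication genes gave 14 rises and 5 falls among 52 (10 to 15 and 0 to 8 across settings), while mitosis and spindle genes gave 7 rises and 19 falls among 52 (2 to 7 and 9 to 21 across settings). The clamp loader gene Rfc5 was at 35.9 and 50.6 CPM early and 117 and 123 CPM late (1.47 ± 0.21, adjusted p = 9.4e-05), and the origin recognition gene Orc5 at 65.4 and 41.2 and 171 and 210.1 CPM (1.84 ± 0.26, adjusted p = 9.8e-05). Cyclin B1, which brings cells into mitosis, is encoded by Ccnb1, at 4645 and 5272 CPM early and 2578 and 2232 CPM late (-1.04 ± 0.16, adjusted p = 0.00019). The spindle gene Haus6 stood at 431 and 466 and then 126 and 117 CPM (-1.89 ± 0.22, adjusted p = 1.5e-05), and the centrosome gene Pcnt at 83.9 and 109.5 and then 35.99 and 30.1 CPM (-1.55 ± 0.24, adjusted p = 0.00017). The cell cycle phase of the embryos in each library is not given in the sources used here.

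The p53 and apoptosis list held 8 rises and 5 falls among 39 (6 to 9 and 3 to 8 across settings). These shares, 20.5% and 12.8%, were near the 15% and 11.2% of all genes. Trp53 itself was at 41.1 and 21.6 CPM early and 131 and 149 CPM late (2.16 ± 0.29, adjusted p = 6.7e-05), and its target genes Ccng1 and Pmaip1 were at 25.99 and 31.2 and then 143 and 205 CPM (2.60 ± 0.37, adjusted p = 0.00011) and at 19.2 and 14.6 and then 67.1 and 90.95 CPM (2.23 ± 0.33, adjusted p = 0.00015). All 3 rose with separated libraries. Falls included the apoptosome gene Apaf1, from 51.4 and 84.4 to 16.4 and 15.4 CPM (-2.10 ± 0.32, adjusted p = 0.00017), and the survival gene Mcl1, from 354 and 542 to 153 and 132 CPM (-1.65 ± 0.26, adjusted p = 0.00024).

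Stress and unfolded protein genes gave 21 rises and 6 falls among 50 (14 to 23 and 2 to 10 across settings), with a median log2 fold change of 0.52. The chaperone gene Hsp90aa1 was at 2539.9 and 1686 CPM early and 9339 and 9249 CPM late (2.14 ± 0.24, adjusted p = 1.3e-05), and Hspa8, the constitutive HSC70, at 5199 and 4347 and 11311 and 11949 CPM (1.28 ± 0.20, adjusted p = 0.00023). These were among the largest gains in CPM of any gene, along with the co-chaperone gene Dnaja1 (1.33 ± 0.19, adjusted p = 0.0001) and the betaine methyltransferase gene Bhmt, at 1574 and 1342 and then 4130.5 and 4326 CPM (1.54 ± 0.36, adjusted p = 0.0044; adjusted p 0.0533 without early replicate 2). The glutathione synthesis gene Gclm rose from 4.92 and 12.6 to 74.8 and 79.2 CPM (3.13 ± 0.35, adjusted p = 1.3e-05). The inducible chaperone gene Hspa1a and the metallothionein gene Mt2 moved the other way, at 8.37 and 5.11 and then 0.667 and 0.827 CPM (-3.16 ± 0.81, adjusted p = 0.0081; adjusted p 0.0735 without late replicate 1 and 0.0658 without late replicate 2) and at 1006 and 1147 and then 308 and 343 CPM (-1.73 ± 0.28, adjusted p = 0.00029).

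The lysosome and autophagy list changed in both directions, with 18 rises and 12 falls among 44 (13 to 19 and 8 to 18 across settings). Lamp1, a membrane protein gene of lysosomes, was at 78.1 and 174 CPM early and 573 and 494 CPM late (2.08 ± 0.32, adjusted p = 0.00019), and the protease gene Ctsd at 211 and 126 and 569 and 627 CPM (1.83 ± 0.24, adjusted p = 6.4e-05). Sqstm1, which encodes the autophagy receptor p62, stood at 141 and 134 and then 507 and 559 CPM (1.96 ± 0.20, adjusted p = 6.8e-06). Other cathepsin genes fell: Ctsl from 2214 and 1923 to 594 and 500.4 CPM (-1.92 ± 0.20, adjusted p = 6.8e-06) and Ctsb from 918 and 1133 to 300.5 and 252 CPM (-1.89 ± 0.18, adjusted p = 4.2e-06). The conjugation enzyme gene Atg3 was at 337 and 389.6 and then 73.9 and 60.8 CPM (-2.43 ± 0.20, adjusted p = 1.1e-06). Tpp1, a lysosomal peptidase gene, had no early count and 22.7 and 23.6 CPM in the late libraries, at least 164-fold higher (adjusted p = 9.7e-06).

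Histone methylation enzymes held 1 rise and 13 falls among 40 (0 to 2 and 4 to 16 across settings), with a median of -0.45, and histone acyltransferases 2 rises and 7 falls among 21 (1 to 2 and 2 to 8 across settings), with a median of -0.39. Ep300, which encodes the acetyltransferase P300, was at 41.5 and 82.9 CPM early and 22.02 and 15.2 CPM late (-1.74 ± 0.36, adjusted p = 0.002). Early replicate 2 was the higher early library, and without it the adjusted p was 0.0535 and the log2 fold change -1.16. Kat2b, the gene of PCAF, went from 22.8 and 27.5 to 6.42 and 6.398 CPM (-1.97 ± 0.46, adjusted p = 0.0042), and the demethylase gene Kdm4c from 97.1 and 95.5 to 32.5 and 28.2 CPM (-1.66 ± 0.25, adjusted p = 0.00015). Hat1, which acetylates newly made histones, rose from 339.7 and 334 to 610.0 and 794 CPM (1.06 ± 0.21, adjusted p = 0.0012). Deacylases gave 4 rises and 2 falls among 18 (3 to 4 and 2 to 3 across settings), with Hdac3 at 12.9 and 9.96 and then 48.1 and 64.4 CPM (2.30 ± 0.27, adjusted p = 1.8e-05) and Sirt1 at 129.7 and 208 and then 65.7 and 56.6 CPM (-1.46 ± 0.26, adjusted p = 0.00061).

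The genes of the TET enzymes, which oxidise 5-methylcytosine, diverged. Tet2 was at 16.8 and 15.3 CPM early and 126 and 113 CPM late (2.90 ± 0.27, adjusted p = 2.8e-06), while Tet1 was at 131 and 138 and 66.4 and 48.8 CPM (-1.22 ± 0.25, adjusted p = 0.0016). Of 17 DNA methylation genes 3 rose and 2 fell (2 to 3 and 1 to 5 across settings). Imprinted genes gave 4 rises and 3 falls among 27 (2 to 8 and 2 to 4 across settings). The shares, 17.6% and 11.8% for DNA methylation and 14.8% and 11.1% for imprinted genes, were near the 15% and 11.2% of all genes. Phlda2, a maternally expressed growth restrictor, was at 69.6 and 119.8 early and 8.06 and 4.74 CPM late (-3.88 ± 0.60, adjusted p = 0.00019), and Igf2r at 542 and 927 and 208 and 199.9 CPM (-1.85 ± 0.34, adjusted p = 0.00071). Of 9 X inactivation genes 1 rose and 1 fell (0 to 2 and 0 to 2 across settings), 11.1% each, also near the shares of all genes. Xist, whose level also depends on the share of female embryos, was at 97.8 and 121 CPM early and 276 and 140 CPM late, and Y-linked transcripts were present in all 4 libraries.

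The largest fold changes outside the lists joined genes of several kinds. Besides Tpp1, rises from no early count included the GPI-anchored protein gene Ly6f, at 21.8 and 24.9 CPM late and at least 165-fold higher, and the arsenic methyltransferase gene As3mt, at 9.86 and 14.9 CPM late and at least 87.4-fold higher. In all 217 genes rose from no early count and 45 fell to no late count. Ptges, the prostaglandin E synthase gene, was at 0.394 and 1.704 CPM early and 170.0 and 202 CPM late (7.43 ± 0.60, adjusted p = 1.1e-06). Sohlh2, a germ cell transcription factor gene, was at 0.0984 and 0 and then 13.04 and 15.1 CPM. Among falls, Golga7b was at 25.5 and 33.3 CPM early and 0.257 and 0.1103 CPM late (-7.24 ± 1.37, adjusted p = 0.00096), and Exoc3l2, an exocyst-like gene, at 369 and 257 and 14.3 and 9.27 CPM (-4.73 ± 0.45, adjusted p = 3.8e-06). The placental factor gene Gcm1 stood at 49.5 and 37.2 and then 1.797 and 1.43 CPM (-4.74 ± 0.88, adjusted p = 0.00078), and the ligand gene Kitl at 20.9 and 38.7 and then 1.33 and 0.993 CPM (-4.66 ± 0.60, adjusted p = 4.2e-05).

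Levels at the earlier control stages are given beside these values without a test, because the comparison of the 4-cell with the early 8-cell stage shares the early libraries. Elf3 was at 53.1 and 39.4 CPM in late 2-cell and 3.61 and 2.61 CPM in 4-cell controls, so its early 8-cell level was the lowest of the 4 stages. Slc2a1 was also higher at the late 2-cell stage and was lowest in 4-cell controls, with 29.5 and 33.3 CPM and 2.38 and 0.321 CPM at those stages. Nanog was at 1.98 and 2.82 CPM and then 87.2 and 67.04 CPM, close to its early 8-cell level. Spic was at 205 and 178 and then 2718 and 2253 CPM and Hand1 at 2.79 and 3.13 and then 71.4 and 40.2 CPM, so both were highest in early 8-cell libraries. Omt2b was at 4652 and 4609 CPM in late 2-cell controls and 144 and 118 CPM in 4-cell controls. In CPM, most of the Omt2b drop lay before the 8-cell stage, though its log2 fold change from early to late 8-cell was still -4.85.

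**Figure D4:**
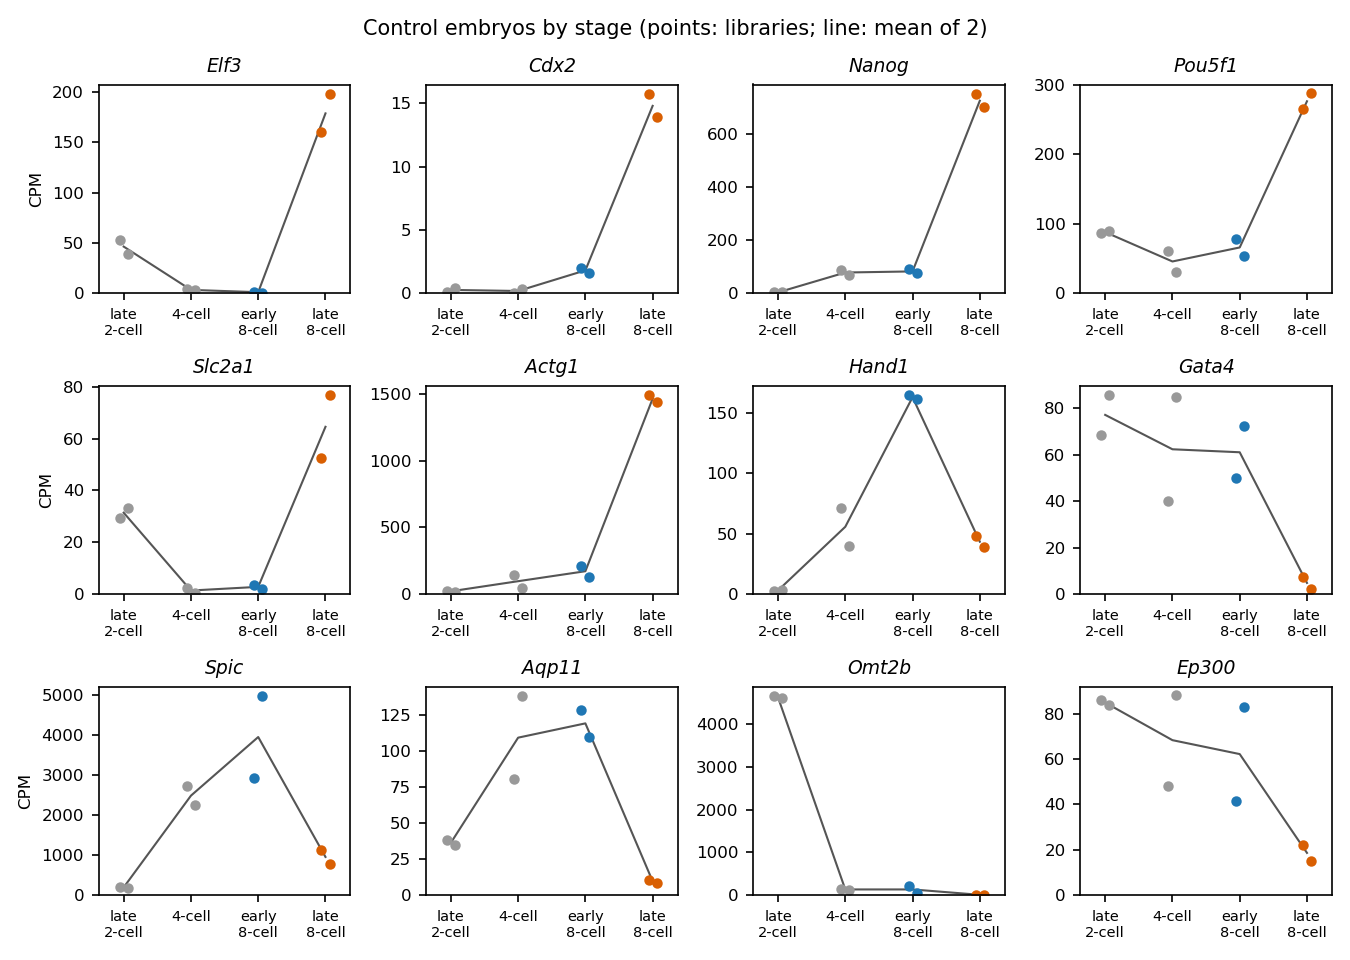
CPM (linear axis from 0) of 12 genes at the 4 control stages, with 1 point per library and a line through the means of 2 libraries; early 8-cell points are blue and late 8-cell points orange. Elf3 and Slc2a1 dip at the 4-cell and early 8-cell stages before the late rise, Hand1 and Spic peak at the early 8-cell stage, and Omt2b is already low at the 4-cell stage.

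The same interval in P300 siRNA embryos shares no library with the controls. There 13% of the 16603 genes passed the test, 6.79% higher and 6.17% lower. The test of the difference between the control and the siRNA change passed for 6.63% (1100 genes). Elf3 had the lowest adjusted p of the named genes: siRNA embryos had 8.79 and 11.2 CPM early and 17.3 and 25.3 CPM late, a change of 1.12 ± 0.38, and the control change exceeded it by 6.67 ± 0.63 on the log2 scale (adjusted p = 5.6e-05). For Nanog the siRNA embryos had 102 and 33.2 CPM early and 67.7 and 86.02 CPM late, with a difference of 2.96 ± 0.70 (adjusted p = 0.019). For Krt8 the difference had the other sign, at -2.60 ± 0.70 (adjusted p = 0.036), since siRNA embryos went from 5.65 and 2.52 to 165 and 113 CPM. Dusp6 was at 0.261 and 0.344 CPM in early siRNA embryos, and its difference was -7.45 ± 1.37 (adjusted p = 0.0053). Because these genes were picked for their change in controls, a smaller change in siRNA embryos is favoured by the choice. One late siRNA library held 3202332 counts, the fewest of all. Without late control replicate 2 the number of differing genes was 204.

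**Figure D5:**
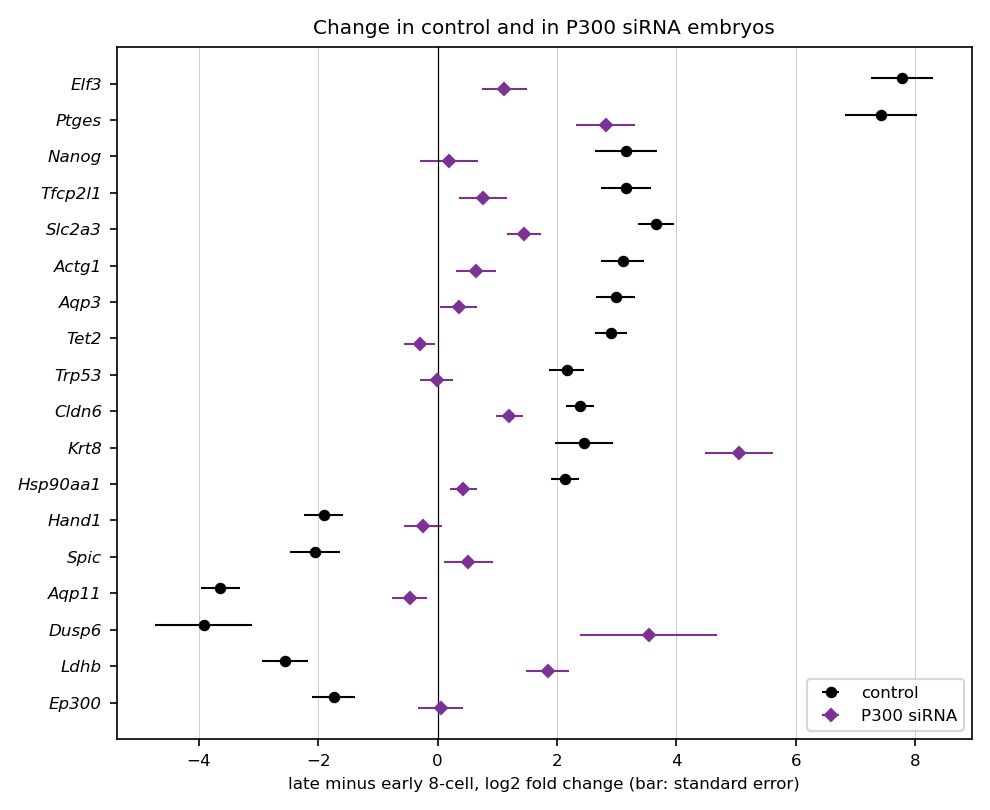
Late minus early 8-cell log2 fold change with its standard error in control (black circles) and P300 siRNA embryos (purple diamonds) for 18 genes whose change differed between them by the test of the difference. Elf3 stands at 7.78 in controls and 1.12 in siRNA embryos, Krt8 is the gene shown with the larger rise in siRNA embryos, and Dusp6 and Ldhb point in opposite directions.

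Markers of cells that could accompany the embryos were low in all 4 libraries. The summed level of 9 cumulus and granulosa markers was 0 to 0.394 CPM with 6 of them at 0 throughout, and 4 sperm markers summed to 0.179 to 0.984 CPM. Blood markers summed to at most 0.788 CPM and fibroblast markers to at most 3.14 CPM. Of 3 oviduct markers, Ovgp1, the oviduct glycoprotein gene, was at 6.79 and 6.91 CPM early and 2.002 and 2.32 CPM late (adjusted p = 0.079). The 6 embryo markers summed to 9338 and 10840 CPM early and 8066 and 7554 CPM late, and among them Sox2 was the one at or near 0.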

How the data were processed

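Lysed mouse preimplantation embryos were sequenced by Smart-seq2 in 20 libraries, per the labels' protocols, of which 4, in 2 control groups of 2, are described. Alignment used HISAT2 2.2.1 and the build mm9 as far as the submitters' processing notes list them, with no settings. They also list Cufflinks 2.2, the trimmer cutadapt 4.1 and bcl2fastq 2.20.0.422. The authors deposited raw counts per gene, and strand use in counting is not given in the sources used here, so overlapping or antisense genes and near-identical copies could not be separated. The authors also deposited FPKM values. The log2 FPKM column of control early 8-cell replicate 2 correlated with its counts, after length correction, at 0.886, against 0.998 or more in the other 19, so counts were used and FPKM served as an alternative only.

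Counts of all 20 libraries were fitted with edgeR 4.0.16 in R 4.3.3 (default low-count filter over groups, TMM scaling, 1 coefficient per group, 10 residual and 7.98 prior degrees of freedom). The two-sided quasi-likelihood F test was used with Benjamini-Hochberg adjustment over 16603 genes and a threshold of 0.05. The fit spans all groups, so 553 tested genes had no count in the 4 libraries. The standard error is the log2 fold change over the square root of F. A gene with no count in a group was given a bound from 3 counts over that group. The procedure was tested on simulated data. No pair of replicates was a copy of the same library by the counts.

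The comparison, the 42 gene lists and the naming rule were chosen with earlier results of these data known. Genes named are the 12 largest called rises and falls by fold (at least 10 CPM, libraries separated), the 8 largest by CPM difference, up to 4 called members of each list per direction by adjusted p (the most abundant member where none passed), and Ep300, Cdx2, Nanog, Pou5f1 and Cdh1, of which only some are printed and a few are not reported here. Alternatives were DESeq2 size factors, the DESeq2 1.42.0 Wald test, other filters, fewer libraries in the fit, thinning to equal depth, a replicate block, each library left out, a minimum log2 fold change of 1 and limma 3.58.1 on log2(FPKM + 1). Figures were drawn with matplotlib 3.10.9.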

Additional observations from a re-analysis of the deposited data

Results flagged for a closer look

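The early to late change differed between control and P300 siRNA embryos for 1100 genes by the test of the difference (edgeR quasi-likelihood, adjusted p under the threshold). The genes of the report among them were picked for their change in controls, which favours a larger change there. Values below are the control change minus the siRNA change on the log2 scale, and a positive value means that the control change was the more positive one.

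Among lineage and epithelial genes that rose in controls, the difference was 6.67 for Elf3, 2.96 for Nanog, 2.40 for Tfcp2l1, 1.19 for Cldn6, 2.45 for Actg1, 0.99 for Actn4 and 2.63 for Aqp3. It was -2.60 for Krt8, the one rise in this group that was smaller in controls. Among falls it was -1.66 for Hand1, -2.56 for Spic, -5.51 for Gcm1, -2.23 for Dlg5, -1.93 for Vcl, -3.17 for Aqp11, -4.58 for Phlda2 and -1.63 for Omt2a.

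For signalling genes the difference was -7.45 for Dusp6, -2.48 for Spred1, -5.19 for Fzd7, -3.50 for Kitl and -1.66 for Ccn1. For fuel and synthesis genes it was 2.21 for Slc2a3, 1.03 for Aldoa, -4.40 for Ldhb, -1.80 for Pfkfb3, 2.28 for Fh1, 1.27 for Sucla2, 3.52 for Scd2, 2.57 for Mvd, 3.14 for Slc6a14, 1.13 for Slc3a2, 1.57 for Gclm and 4.61 for Ptges.

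For stress, death and lysosome genes the difference was 2.17 for Trp53, -2.10 for Apaf1, 1.71 for Hsp90aa1, 0.93 for Dnaja1, -4.26 for Hspa1a, -1.32 for Ctsl, -1.18 for Ctsb and -1.46 for Atg3. For chromatin and cell division genes it was -1.79 for Ep300, 3.20 for Tet2, 1.25 for Hdac3, -1.33 for Sirt1, 2.22 for Orc5, -1.47 for Haus6 and -1.37 for Pcnt. Others were 1.14 for Eif3d, -3.21 for Btg1, -2.72 for Exoc3l2 and -6.09 for Golga7b. Fitted differences of 6.31 for Tpp1, 8.49 for As3mt and 6.74 for Sohlh2 rest on 0 or 1 early control counts and depend on the fit's prior count. Ep300 is the gene the siRNA is directed against, and it was at 11.7 and 16.4 CPM in early and 16.2 and 13.2 CPM in late siRNA embryos.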

How the results depend on the processing

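The number of calls stayed within 1.5 times of 4346 with other scaling, tests, filters, libraries in the fit and depth. Leaving out 1 library gave 2010 to 3642 calls, 1219 to 2036 higher and 752 to 1606 lower, and limma on FPKM without early replicate 2 gave 2419, 1446 and 973. List members called, 406 in all, were 230 to 343 with 1 library left out and 261 with FPKM. Genes whose change differed between control and siRNA embryos, 1100 in all, were 1948 with the DESeq2 Wald test, 1885 without the filter and 204 to 1404 with 1 library left out. The late minus early difference in genes detected at equal depth was 1307.5, and 374 at a minimum of 5 counts. At a minimum of 50 counts the median log2 fold change of all genes moved by -0.16, and falls (2151) outnumbered rises (2006). Of 239 named genes called, 151 passed with each library left out in turn, and none changed sign. Of 42 list medians, 8 took the opposite sign under at least 1 setting (primitive endoderm down to -0.09, deacylases up to 0.46, 2-cell genes up to 0.19, lysosome up to 0.02, and 4 marker lists), and 6 more reached or left 0. Among single genes named by the rule, direction changed for uncalled markers only. With 1 library left out, the log2 fold change ran from -5.47 to 0.00 for Tnfaip6, -0.60 to 5.19 for Prm2, -3.05 to 0.0686 for Alas2 and -1.83 to 0.83 for Postn, and with FPKM it was -0.23 for Prm2 and 0.11 for Postn. The causes were not tested. The replicate 1 minus replicate 2 differences of the early and late libraries correlated at -0.0595, and a replicate block gave 4358 calls. Whether same-numbered libraries share an origin was not tested. Depth is lower in early libraries, so a gene at or near 0 there may be present below detection.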

Other observations

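Gene families were also counted by symbol stem, a rule chosen after the values were seen, among the 113 stems with at least 15 tested members. The stems named are among the 6 with the highest share of calls in each direction, so a high share is favoured by the choice. Over all tested genes 15% rose and 11.2% fell. The Vps stem, genes named for vacuolar protein sorting, held 12 rises and 1 fall among 35, with Vps29 (2.37 ± 0.32) and Vps33a (1.67 ± 0.27) of lowest adjusted p. The Trappc stem, subunits of a tethering complex of the secretory pathway, held 6 rises and 1 fall among 15, led by Trappc3 (1.34 ± 0.25) and Trappc1 (1.30 ± 0.25). The Rad stem, which includes DNA repair genes, held 8 rises and 1 fall among 20, with Rad51d (1.99 ± 0.31) and Rad9a (2.15 ± 0.35) first. Pex genes of peroxisome assembly held 6 rises and 1 fall among 16.

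The Fbxw stem, F-box genes with WD repeats, had the highest share of falls, with 10 falls and 2 rises among 21 (47.6% lower, beside 11.2% of all tested genes). Fbxw24 (-3.48 ± 0.39) and Fbxw28 (-2.77 ± 0.33) were first by adjusted p. Many of these genes are close copies of each other, and how reads were divided among them is not given in the sources used here. The Taf stem, which holds subunits of TFIID and of SL1, general transcription factors of different RNA polymerases, had 9 falls and 0 rises among 23, led by Taf1d (-0.96 ± 0.16), of SL1, and Taf8 (-1.13 ± 0.20), of TFIID. The Pik stem, phosphoinositide kinase genes, had 6 falls and 0 rises among 15, led by Pik3c2a (-2.52 ± 0.24). The Nlrp stem, with several oocyte-expressed genes, had 6 falls and 1 rise among 16, led by Nlrp9c (-4.18 ± 0.54) and Nlrp5 (-2.78 ± 0.37).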
